A study of Mus musculus with 6 samples.

Results

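The RNA-Seq levels of 9 macrophage transcription factors were examined in C2C12 cells on day 5 of differentiation. The 9 genes, *Spi1*, *Irf8*, *Cebpa*, *Cebpb*, *Maf*, *Runx1*, *Nr1h3*, *Tfec* and *Batf3*, were taken as a list and looked up by symbol among the 23231 genes with a count in any library. C2C12, a myoblast line from mouse muscle, forms myotubes at low serum. The study asked how repression of Myog-En5, an enhancer of the myogenic factor gene *Myog*, changes the transcriptome. All cells were C2C12 transduced with lentivirus, selected with puromycin, not described as clones, and differentiated in horse serum for 5 days. The 3 dCas9-KRAB libraries are the controls, whose cells carried a nuclease-dead Cas9 fused to the KRAB repressor domain and no enhancer sgRNA. The 3 dCas9-KRAB-En5 libraries came from cells that carried the same fusion together with sgRNAs against Myog-En5, so the fusion, the virus and the selection were shared by both groups. The labels describe the cells as myoblasts from muscle and do not say whether the cultures of a group were independent, so the p-values given here measure the spread between these libraries, which may be technical.

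Macrophage identity is built by a small set of DNA-binding proteins acting together. PU.1, the product of *Spi1*, is required for the myeloid lineages and opens myeloid enhancers, and C/EBP proteins bind many of the same enhancers. IRF8 pairs with PU.1 in monocytes and dendritic cells, RUNX1 acts earlier in blood formation, and the remaining factors are tied to narrower programs. LXRα, the product of *Nr1h3*, senses oxysterols, MAF is linked to tissue macrophages, TFEC is a macrophage relative of MITF, and BATF3 is needed by cross-presenting dendritic cells. In skeletal muscle these proteins are known mainly from the macrophages between the fibers, although C/EBPβ is also expressed in myoblasts and RUNX1 in injured muscle.

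The sequences directly before the annotated starts are shown for 3 factors with high levels and for *Tfec*, which was not detected, so that they can be compared. They are the 250 bases before the first listed RefSeq start in GRCm38.p6, written 5′ to 3′ on the strand of the gene, and the table used held 7 of the 9 genes. *Spi1* and *Maf* were not among them. The capitals mark a TATAAA box, the PU.1 core AGGAAG or the RUNX motif TGTGGT on either strand.
*Cebpa*, chr7:35119043-35119292, plus strand: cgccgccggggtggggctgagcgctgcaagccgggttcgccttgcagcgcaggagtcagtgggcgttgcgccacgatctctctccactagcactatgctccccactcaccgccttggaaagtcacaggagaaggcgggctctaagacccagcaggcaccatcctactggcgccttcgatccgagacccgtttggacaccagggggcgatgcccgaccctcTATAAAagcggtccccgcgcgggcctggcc
*Irf8*, chr8:120736108-120736357, plus strand: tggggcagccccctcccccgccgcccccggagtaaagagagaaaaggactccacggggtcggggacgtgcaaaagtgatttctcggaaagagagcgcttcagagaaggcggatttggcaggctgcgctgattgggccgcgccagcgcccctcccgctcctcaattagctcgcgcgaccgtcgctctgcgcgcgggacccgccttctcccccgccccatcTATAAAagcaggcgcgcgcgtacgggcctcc
*Cebpb*, chr2:167688665-167688914, plus strand: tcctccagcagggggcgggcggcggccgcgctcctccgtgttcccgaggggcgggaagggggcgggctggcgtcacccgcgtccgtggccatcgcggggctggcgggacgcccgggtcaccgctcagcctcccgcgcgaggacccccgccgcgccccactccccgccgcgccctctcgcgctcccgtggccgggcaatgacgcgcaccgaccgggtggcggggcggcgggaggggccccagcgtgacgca
*Tfec*, chr6:16898442-16898691, minus strand: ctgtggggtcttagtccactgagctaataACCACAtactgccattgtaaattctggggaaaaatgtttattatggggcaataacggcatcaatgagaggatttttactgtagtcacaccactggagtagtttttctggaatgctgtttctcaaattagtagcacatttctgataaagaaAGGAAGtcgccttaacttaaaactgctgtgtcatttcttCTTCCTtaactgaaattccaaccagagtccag

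*Cebpa* and *Irf8* held TATAAA with its first base at positions -30 and -31, counted back from -1 just before the start, a motif found on either strand in 12.4% of the 32851 annotated starts. A second annotated start of *Irf8* (chr8:120738389-120738638 before it, 54.0% G or C) held none of the motifs searched. *Cebpb* held none of the 7 motifs searched. The others were the cAMP response core TGACGT (in 6.47% of starts), the E-box of lysosomal genes CACGTG (6.02%), the E-box of muscle genes CAGCTG (4271 starts) and the IRF pair GAAANNGAAA (2.98%). In *Cebpb*, 81.6% of the 250 bases were G or C. The start of *Tfec*, with 39.2% G or C, held AGGAAG at -71 and on the opposite strand at -32, and TGTGGT on the opposite strand at -221. Among the genes not shown, AGGAAG also stood before the first listed start of *Runx1* (-124), *Batf3* (-152) and, on the opposite strand, *Nr1h3* (-243). Of these, *Runx1* and *Nr1h3* were detected in all 6 libraries. The E-box CACGTG stood before the same starts of *Runx1* (-71) and *Batf3* (-247). AGGAAG was found in 29.5% of all starts and TGTGGT in 14.0%, and the median G or C content of all starts was 52.4%. The motifs were chosen with the expression values known, and a match describes letters and not a bound site.

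The libraries held 31831093 to 73988425 counts, with every dCas9-KRAB-En5 library below every control. *Myog*, whose enhancer was targeted, was at 1065 to 1224 TPM in the controls and at most 0.379 TPM with the enhancer sgRNAs, where TPM stands for the counts per unit of gene length, set to a common total for all libraries. Some of the 11 myoblast markers were near 0 in dCas9-KRAB-En5 as well, so the level of *Myog* alone does not check the label. Others were not. *Itga7* was at 93.3 to 271 TPM in the controls and 9.01 to 27.7 TPM in dCas9-KRAB-En5, and *Sdc4* at 37.9 to 56.1 and 43.0 to 350 TPM. The summed TPM of the 11 markers overlapped, at 203 to 547 in the controls and 73.8 to 361 in dCas9-KRAB-En5. *Myod1*, which encodes the myogenic factor MyoD, was at 33.8 to 111 TPM in the controls and at most 0.0761 TPM in dCas9-KRAB-En5 (edgeR adjusted p = 1.82e-05), and the related *Myf5* at a mean of 3.17 TPM in the controls and at most 0.0566 TPM in dCas9-KRAB-En5 (edgeR adjusted p = 0.000659). *Cdh15* (M-cadherin) was at 21.8 to 87.0 TPM in the controls and at most 1.63 TPM in dCas9-KRAB-En5 (edgeR adjusted p = 0.0159, or 0.000205 with same-numbered libraries as a block). Ribosomal protein genes held 19.4% of the counts in dCas9-KRAB replicate 1 and 25.8% in dCas9-KRAB-En5 replicate 3, the highest of their groups, against 10.8% to 15.8% in the other 4 libraries, and dCas9-KRAB-En5 replicate 3 listed 13991 genes against 17084 to 19395 elsewhere. The summed TPM of 15 myotube markers was 17410 to 20241 in dCas9-KRAB and 15.5 to 24.1 in dCas9-KRAB-En5, with 14 of the 15 lower by edgeR. The summed TPM of 30 macrophage markers was 5826 to 6773 in dCas9-KRAB and 8065 to 11006 in dCas9-KRAB-En5. Of these, 18 were at 10 TPM or more in all 6 libraries, *Csf1r* (the receptor for CSF1) among them at 132 to 668 TPM, while *Mrc1* (the mannose receptor) was at 0 in all 6 libraries and *C1qa*, *C1qb* and *C1qc* (subunits of complement C1q) stayed below 1 TPM. *Tyrobp*, a signaling adaptor of myeloid cells, was at 1048 to 2547 TPM. The labels name a myoblast line and do not account for macrophage genes at these levels in all 6 libraries, controls included, so each level below is that of the library as labelled and not of a known cell type.

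A factor was taken as present in a library with at least 1 TPM and at least 10 counts. The same 6 of the 9 factors, *Spi1*, *Cebpb*, *Cebpa*, *Irf8*, *Runx1* and *Nr1h3*, were present in each of the 6 libraries, whether or not the cells carried the enhancer sgRNAs. *Maf* and *Batf3* had at most 0.266 TPM, and *Tfec* had no count. The listed set was therefore present in part, with 3 members below 1 TPM in all libraries of both groups. Among all genes with a count, 34.0% were at 1 TPM or more in every library and 12.9% at 10 TPM or more, the level that *Spi1*, *Cebpb*, *Cebpa* and *Irf8* held in all 6.

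**Figure D1:**
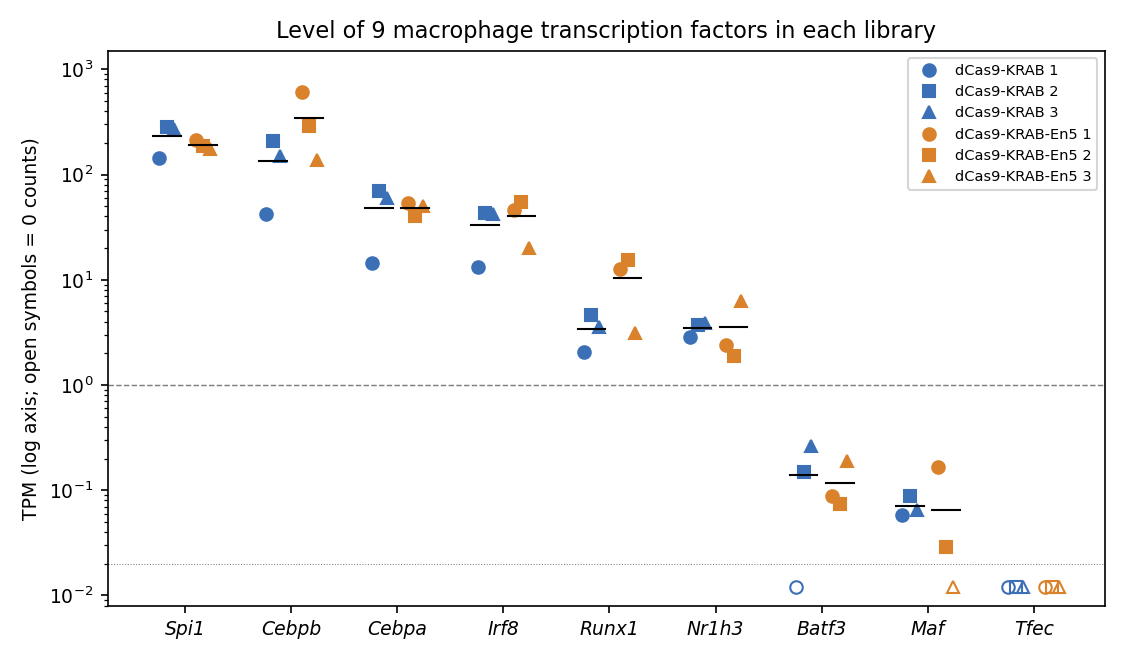
TPM of the 9 factors on a log axis, with a symbol for each library and a black line at the mean of the 3 libraries of a group; open symbols at the bottom stand for 0 counts and the dashed line for 1 TPM. *Spi1*, *Cebpb*, *Cebpa* and *Irf8* lie above 10 TPM in all libraries, *Runx1* and *Nr1h3* between 1 and 20, and *Batf3*, *Maf* and *Tfec* below 1.

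*Spi1* (ENSMUSG00000002111; chromosome 2, 91082390 to 91115756, plus strand of GRCm38) had 10612, 28508 and 32783 counts in the controls, in the order of the replicate numbers, and 12154, 8447 and 10768 counts in dCas9-KRAB-En5. Its TPM was 145, 283 and 272 in dCas9-KRAB and 213, 185 and 175 in dCas9-KRAB-En5. In TPM, the dCas9-KRAB-En5 libraries lay close together, inside the range of the controls, of which replicate 1 was the lowest. With counts scaled only to a common library total, *Spi1* was at 262, 426 and 443 in dCas9-KRAB. In dCas9-KRAB-En5 it was at 301, 239 and 338, with replicate 2 below all controls and replicate 3 the highest of its group. The scaling factors of 1.22 and 0.730 lower replicate 2 and raise replicate 3 further in edgeR's fit, so the closeness need not hold there. The mean was 233 ± 76.4 TPM (SD, n = 3) against 191 ± 19.8 TPM (SD, n = 3), and in each library at least 96.6% of the genes with a count in the series had a lower TPM than *Spi1*. The log2 fold change, dCas9-KRAB-En5 over dCas9-KRAB, was -0.32 (standard error, SE, 0.50). In edgeR's quasi-likelihood test the adjusted p was 0.689, so *Spi1* was not called, a call needing an adjusted p of 0.01 or less and a log2 fold change of 1 or more in either direction. Without dCas9-KRAB-En5 replicate 3 the log2 fold change was -0.83 (edgeR adjusted p = 0.102). In RNA from a whole culture, a difference in the number of expressing cells and a difference in RNA per cell cannot be told apart.

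*Irf8* (ENSMUSG00000041515; chromosome 8, 120736358 to 120756694, plus strand) encodes the interferon regulatory factor that partners PU.1. Its counts were 2510, 11493 and 13217 in dCas9-KRAB and 6918, 6606 and 3229 in dCas9-KRAB-En5. Its TPM was 13.1, 43.5 and 41.8 in dCas9-KRAB, and 46.3, 55.2 and 20.0 in dCas9-KRAB-En5. The groups overlapped, and the low library of each group was the library with the highest ribosomal protein share. The log2 fold change was 0.06 (SE 0.50, edgeR adjusted p = 0.945).

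The 2 C/EBP members differed in their spread. *Cebpa* (ENSMUSG00000034957; chromosome 7, 35119293 to 35121928, plus strand), which is needed to make granulocyte and macrophage progenitors, had a TPM of 14.3, 69.1 and 59.8 in dCas9-KRAB and of 54.2, 40.1 and 50.2 in dCas9-KRAB-En5. Its counts ran from 1021 to 7064. All libraries but dCas9-KRAB replicate 1 were at 40.1 TPM or more, and the log2 fold change was 0.06 (SE 0.60, edgeR adjusted p = 0.959). *Cebpb* (ENSMUSG00000056501; chromosome 2, 167688915 to 167690418, plus strand), which is induced by inflammatory signals, had 1718, 11799 and 10100 counts in dCas9-KRAB and 19594, 7345 and 4685 counts in dCas9-KRAB-En5. Its TPM was 42.1, 210 and 150 in dCas9-KRAB and 615, 288 and 136 in dCas9-KRAB-En5. *Cebpb* thus spanned 14.6-fold from the lowest library to the highest, the widest range of the 6 factors present in all libraries, against 1.95-fold for *Spi1*. In TPM, both dCas9-KRAB-En5 replicates 1 and 2 were above all controls and replicate 3 was not. The scaling factors of 1.22 and 0.730 lower replicate 2 and raise replicate 3 in edgeR's fit. This order therefore need not hold there. The log2 fold change was 1.13 (SE 0.60, edgeR adjusted p = 0.213). The opposite-strand gene *Tmem189* shares 312 of its exon bases with *Cebpb*, 20.7% of the exon bases of *Cebpb*. *Tmem189* was at 28.8, 58.7 and 50.3 TPM in dCas9-KRAB and at 152, 200 and 65.3 TPM in dCas9-KRAB-En5, so its groups did not overlap, as in 27.5% of the genes tested. Since a strand setting for the counting is not given in the sources used here, reads in the shared bases cannot be assigned with certainty, and their part in the *Cebpb* values was not tested. *Cebpa*, *Maf*, *Runx1* and *Nr1h3* share 34 to 440 exon bases with annotated genes of at most 2.05 TPM.

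*Runx1* and *Nr1h3* were present at lower levels. *Runx1* (ENSMUSG00000022952; chromosome 16, 92601466 to 92826149, minus strand) had 665, 2101 and 1909 counts in dCas9-KRAB and 3241, 3150 and 862 counts in dCas9-KRAB-En5. Its TPM was 2.04, 4.67 and 3.54 in dCas9-KRAB, and 12.7, 15.4 and 3.13 in dCas9-KRAB-En5. In TPM, as with *Cebpb*, dCas9-KRAB-En5 replicates 1 and 2 were above all controls and replicate 3 lay within them. The scaling factor of 0.730 raises replicate 3 in edgeR's fit, so it need not lie within the controls there. The log2 fold change of 1.27 (SE 0.46) had the smallest p of the members, with an unadjusted p of 0.0182 and an adjusted p of 0.0788 from edgeR's test. With each library left out in turn, the log2 fold change of *Runx1* stayed at 0.96 to 1.43. Of the 7 members tested, 1 had an unadjusted p below 0.05, against 32.9% of all genes tested.

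*Nr1h3* (ENSMUSG00000002108; chromosome 2, 91184061 to 91202834, minus strand) had 197, 351 and 438 counts in dCas9-KRAB and 129, 81 and 363 counts in dCas9-KRAB-En5. Its TPM was 2.89, 3.73 and 3.89 in dCas9-KRAB, and 2.42, 1.90 and 6.31 in dCas9-KRAB-En5. Here dCas9-KRAB-En5 replicate 3 was the highest library and replicates 1 and 2 were below all controls, the opposite of the order seen for *Runx1*. The log2 fold change was 0.31 (SE 0.73, edgeR adjusted p = 0.800). With the replicate block it was -0.33 (edgeR adjusted p = 0.729). Without dCas9-KRAB-En5 replicate 3 it was -1.30 (edgeR adjusted p = 0.0457, with 0.0152 to 0.950 over the alternatives). *Nr1h3* lies 68304 bases from *Spi1* on chromosome 2, with *Mybpc3* and *Madd* as the only annotated genes between them.

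*Maf*, *Batf3* and *Tfec* had few or no counts, with at most 29 in any library. *Maf* (ENSMUSG00000055435; chromosome 8, 115682942 to 115707794, minus strand) had 13, 27 and 24 counts in dCas9-KRAB and 29, 4 and 0 counts in dCas9-KRAB-En5, with at most 0.166 TPM. It passed the low-count filter with a log2 fold change of -0.51 (SE 1.19, edgeR adjusted p = 0.798), which was -2.69 without dCas9-KRAB-En5 replicate 1 (edgeR adjusted p = 0.380, with 0.380 to 0.974 over the alternatives) and -1.54 with the replicate block. Of its 50-base words, 0.269% also occur in transcripts of other genes. *Batf3* (ENSMUSG00000026630; chromosome 1, 191097847 to 191108945, plus strand) had 0, 9 and 19 counts in dCas9-KRAB and 3, 2 and 7 counts in dCas9-KRAB-En5, and did not pass the low-count filter. *Tfec* (ENSMUSG00000029553; chromosome 6, 16833373 to 16898441, minus strand) had no count in any of the 6 libraries, which allows up to 3 counts, or 0.012 to 0.0316 TPM depending on the library. These limits cover counting error only, and no fold is given for *Batf3* or *Tfec*.

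By mean TPM in dCas9-KRAB the factors ran from *Spi1* at 233 through *Cebpb* at 134, *Cebpa* at 47.7, *Irf8* at 32.8, *Nr1h3* at 3.50, *Runx1* at 3.42 and *Batf3* at 0.139 to *Maf* at 0.0702. Across libraries, neighbours in this order overlapped, except that all libraries of *Irf8* were above all of *Nr1h3* and all of *Runx1* above all of *Batf3*. Within each control library, *Spi1* was above *Cebpb*, *Cebpb* above *Cebpa* and *Cebpa* above *Irf8*. In dCas9-KRAB-En5 the order of the mean TPM was *Cebpb* at 346, *Spi1* at 191, *Cebpa* at 48.2, *Irf8* at 40.5, *Runx1* at 10.4, *Nr1h3* at 3.54, *Batf3* at 0.118 and *Maf* at 0.0649. *Cebpb* and *Spi1* overlapped, whereas *Spi1* lay above *Cebpa*, *Irf8* above *Runx1* and *Nr1h3* above *Batf3* in all libraries. In both groups, 4 factors had a mean above 30 TPM, 2 had a mean of 3.42 to 10.4 TPM and 3 stayed below 1 TPM.

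In the comparison of the groups, 0 of the 7 tested members passed both cutoffs. Across all 14378 genes tested, 6.19% passed, 1.52% as higher and 4.67% as lower in dCas9-KRAB-En5. These were 219 higher and 671 lower genes, against 70 and 516 with scaling by total counts alone. The TPM of the 2 groups overlapped for the 8 members with any count, whereas those of the stated 27.5% of all genes did not. Overlap was not counted on the scale of edgeR's fit. Under the block, 0 members passed, against 10.7% of the genes tested, and with DESeq2 also 0 members, against 14.5% of the genes with an adjusted p. The median log2 fold change of the 7 members was 0.06, beside 0.08 for all genes tested. A member that was not called is not shown to be unchanged, with standard errors of 0.46 to 1.19 on the log2 scale for the 7 members.

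The 2 libraries with the highest ribosomal protein share were also low in the TPM of several factors. dCas9-KRAB replicate 1 was the lowest of its group in TPM for all 6 present factors. In TPM, dCas9-KRAB-En5 replicate 3 was the lowest of its group for *Spi1*, *Cebpb*, *Irf8* and *Runx1*. With counts scaled only to a common library total, it was instead the highest of its group for *Spi1*, at 338 against 301 and 239. The scaling factor of 0.730 raises it further in edgeR's fit, where it need not be the lowest for *Cebpb* either. When both libraries of high ribosomal protein share were left out, a comparison chosen after the values were seen, 3 members passed the cutoffs. *Spi1* was lower with a log2 fold change of -1.06 (adjusted p = 0.00714, range 0.00714 to 0.953 over the alternatives), *Cebpa* was lower with -1.02 (adjusted p = 0.00946, range 0.00946 to 0.991) and *Runx1* was higher with 1.19 (adjusted p = 0.00210, range 0.00210 to 0.266), all from edgeR's test on the remaining 2 libraries a group. These 3 of 7 members stand beside 42.5% of all genes tested, so the share called among the members was near that of other genes. The part of the ribosomal protein share in these differences was not tested.

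**Figure D2:**
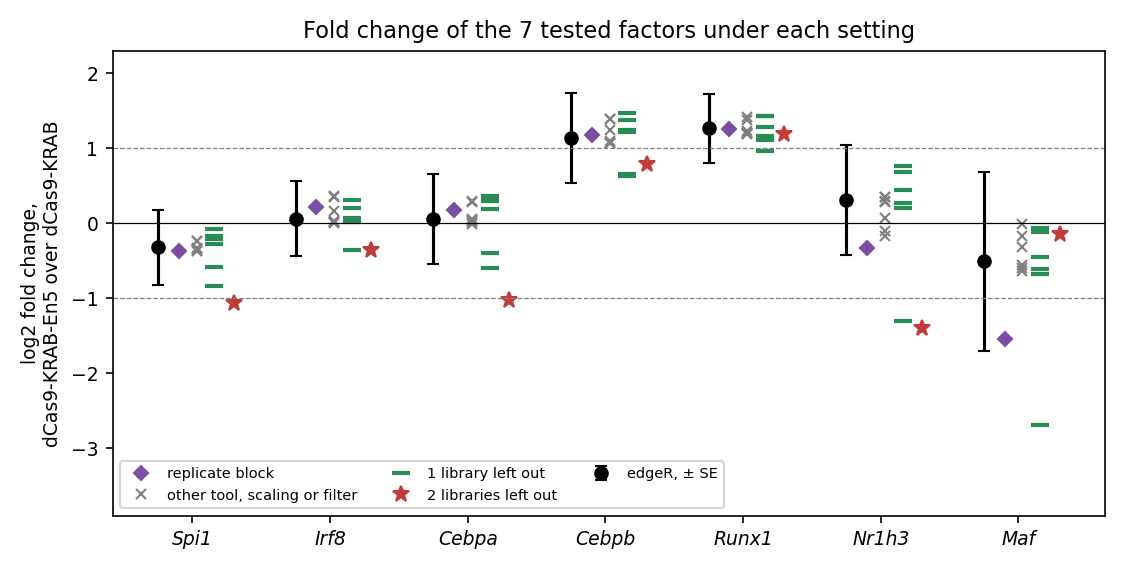
Log2 fold change, dCas9-KRAB-En5 over dCas9-KRAB, of the 7 tested factors in edgeR's fit with its standard error (black) and under the alternatives (colors); dashed lines mark a log2 fold change of 1 in either direction. *Cebpb* and *Runx1* stay above 0 under all settings and *Spi1* and *Maf* below 0, while *Irf8*, *Cebpa* and *Nr1h3* lie on both sides.

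Although single factors did not pass, the make-up of the factor pool differed from library to library. *Spi1* held 66.1%, 46.1% and 51.2% of the summed TPM of the 9 factors in dCas9-KRAB and 22.6%, 31.6% and 44.7% in dCas9-KRAB-En5. *Cebpb* held 19.2%, 34.2% and 28.2% in dCas9-KRAB and 65.2%, 49.2% and 34.9% in dCas9-KRAB-En5. *Spi1* was the leading factor in all controls and in dCas9-KRAB-En5 replicate 3, and *Cebpb* led in dCas9-KRAB-En5 replicates 1 and 2. The TPM of *Cebpb* over that of *Spi1* was 0.290, 0.742 and 0.552 in dCas9-KRAB and 2.89, 1.56 and 0.780 in dCas9-KRAB-En5. The groups did not overlap in this ratio, by a small margin between 0.742 and 0.780, and the same ratio to *Spi1* did not overlap in 27.2% of the other genes tested. *Cebpb* over *Cebpa* overlapped, at 2.95, 3.04 and 2.51 in dCas9-KRAB and 11.3, 7.18 and 2.71 in dCas9-KRAB-En5. *Spi1* over *Irf8* also overlapped, at 11.1, 6.49 and 6.49 in dCas9-KRAB and 4.60, 3.35 and 8.73 in dCas9-KRAB-En5. The 3 ratios were chosen after the values were seen and were not tested, and those of *Cebpb* carry the uncertain reads shared by *Cebpb* and *Tmem189*.

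**Figure D3:**
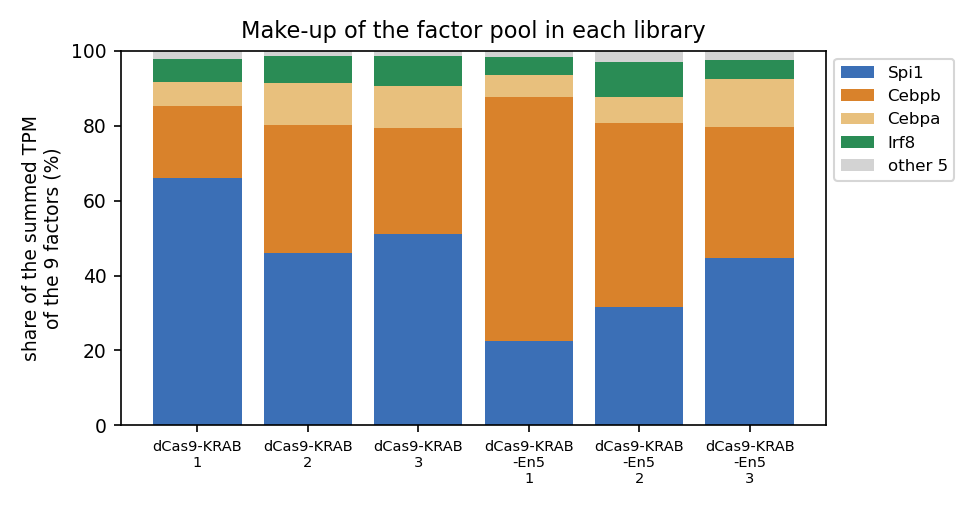
Share of the summed TPM of the 9 factors, in percent, held by *Spi1*, *Cebpb*, *Cebpa*, *Irf8* and the other 5 factors together, with a bar for each library. The share of *Spi1* runs from 46.1% to 66.1% in dCas9-KRAB and from 22.6% to 44.7% in dCas9-KRAB-En5.

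Relative to the macrophage markers of its own library, *Spi1* was lower in each dCas9-KRAB-En5 library than in any control. The TPM of *Spi1* itself overlapped, while the marker sum did not, at 5826 to 6773 in dCas9-KRAB and 8065 to 11006 in dCas9-KRAB-En5. *Tyrobp*, *Cd14* and *Coro1a* had the highest mean TPM of the markers. The log2 ratio of the group means was -0.84, and -0.76 without these 3 markers. Per 1000 TPM of the 30 macrophage markers, *Spi1* stood at 24.9, 41.7 and 40.5 TPM in dCas9-KRAB and at 19.3, 18.9 and 21.6 TPM in dCas9-KRAB-En5. The means were 35.7 ± 9.38 (SD, n = 3) and 20.0 ± 1.49 (SD, n = 3), with p = 0.1 in a two-sided exact permutation test, the smallest that 3 against 3 allow, and an adjusted p of 0.6 over the 6 factors. This test did not pair the libraries by replicate number. With the 3 pairs kept, *Spi1* was lower in 3 of 3 pairs and the exact permutation test gave p = 0.25, the smallest that 3 pairs allow. The same ratio did not overlap between the groups in 34.3% of all genes tested. The other 5 ratios overlapped. In the controls and in dCas9-KRAB-En5, the means were 20.2 and 34.0 for *Cebpb*, 0.523 and 1.04 for *Runx1*, 7.19 and 5.08 for *Cebpa*, 4.97 and 4.11 for *Irf8* and 0.542 and 0.399 for *Nr1h3*, with unadjusted p from 0.3 to 0.6 in the unpaired exact permutation test.

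**Figure D4:**
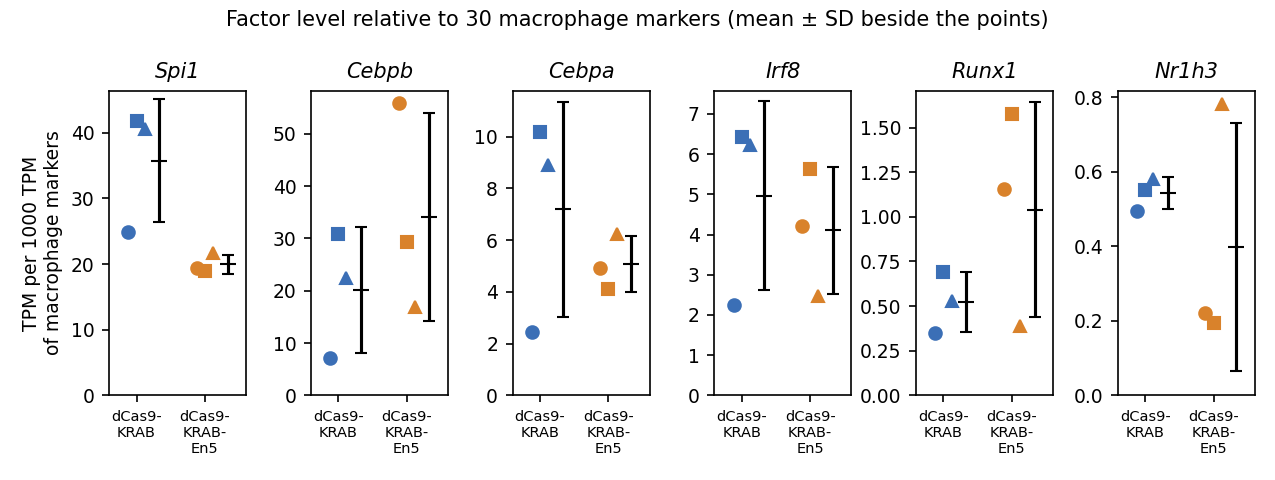
TPM of 6 factors per 1000 TPM of 30 macrophage markers, with a symbol for each library (circle, square and triangle for replicates 1 to 3) and the mean ± SD beside the points; each panel has its own axis from 0. For *Spi1* the 3 dCas9-KRAB-En5 libraries, at 18.9 to 21.6, lie below the 3 controls, and in the other panels the groups overlap.

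Family members were measured to see which relatives accompany the 9 factors. Of 20 paralogs, 19 were tested and 0 passed the cutoffs, with a median log2 fold change of 0.06. Among the relatives of *Tfec*, *Tfe3* was at 6.54 to 40.1 TPM and *Tfeb* at 4.88 to 12.7 TPM. *Mitf* was at 1.62, 0.785 and 0.696 TPM in dCas9-KRAB and 16.4, 11.0 and 1.18 TPM in dCas9-KRAB-En5, with overlap between the groups, and the log2 fold change of 2.74 (adjusted p = 0.0194) did not pass, while that of 2.52 with the replicate block did (adjusted p = 0.00315), both from edgeR's test.

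The small MAF proteins, which lack an activation domain, were also expressed, with *Mafk* at 5.48 to 91.8 TPM (log2 fold change 2.14, edgeR adjusted p = 0.0221). *Irf5*, a factor of inflammatory macrophages, was at 20.8 to 88.9 TPM, above *Irf8* in all libraries. *Nr1h2*, which encodes the widely expressed LXRβ, was at 27.1 to 92.2 TPM, above *Nr1h3* in all libraries. *Batf*, a relative of *Batf3*, was at 0.152 to 2.45 TPM. *Spib*, the closest relative of *Spi1*, reached at most 6.57 TPM, and *Spic* was at 0 in all 6 libraries.

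**Figure D5:**
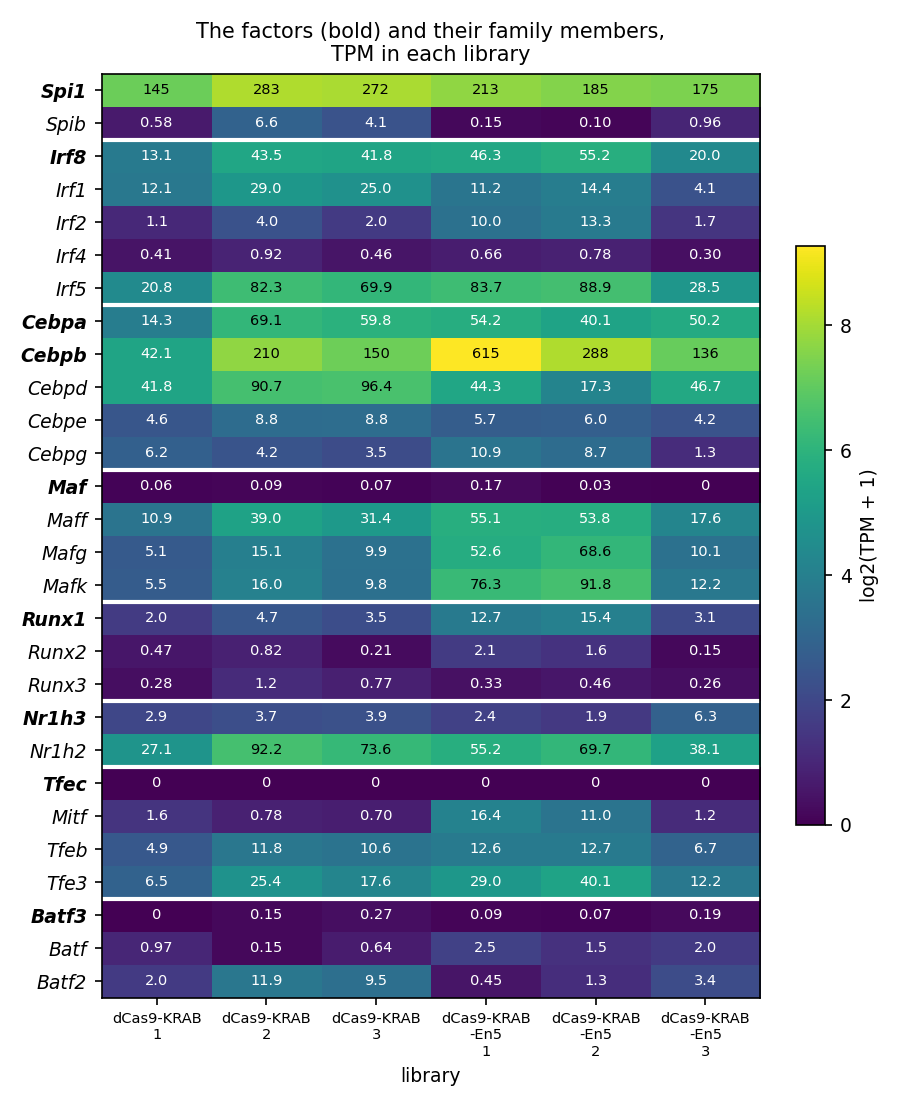
TPM in each library of the 9 factors (bold) and 19 relatives, grouped by family, with color for log2(TPM + 1) and the TPM printed in each cell. *Maf*, *Tfec* and *Batf3* are at most at 0.266 TPM in rows next to relatives such as *Mafk* and *Tfe3* that are expressed, and *Spi1* and *Cebpb* have the highest values.

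Cofactors and other myeloid regulators were present in part, with 8 of 12 and 10 of 16 at 1 TPM or more in all libraries. Of 12 partners and antagonists, 11 were tested and 0 passed, with a median log2 fold change of 0.72. *Rxrb*, a retinoid X receptor that partners LXR, was at 50.7 to 134 TPM, and *Cbfb*, the obligate partner of RUNX1, at 2.99 to 16.8 TPM. *Trib2* and *Gfi1*, which encode antagonists of C/EBPα and PU.1, stayed below 1 TPM. *Trib1*, of the same list, did not, at 1.16 to 2.51 TPM in dCas9-KRAB and 22.0, 7.79 and 1.41 TPM in dCas9-KRAB-En5. Its log2 fold change was 2.14 (edgeR adjusted p = 0.0474). *Ddit3*, which encodes the C/EBP antagonist CHOP, had a log2 fold change of -2.04 (adjusted p = 0.0108) and *Id2* of 2.34 (adjusted p = 0.0215) in edgeR's test, and both passed with the replicate block (adjusted p = 0.00451 and 0.00624). Of 16 other myeloid factors all were tested and 0 passed, with a median log2 fold change of 1.15 and 13 at 10 TPM or more in at least 1 library. *Nfil3* reached the highest single value, at 21.5 to 214 TPM, while *Klf2*, at 16.4 to 59.0 TPM, was above it in dCas9-KRAB replicates 2 and 3 and dCas9-KRAB-En5 replicate 3. *Klf4* (log2 fold change -2.31, edgeR adjusted p = 0.0121) and *Pparg* (-5.09, adjusted p = 0.0144) passed with the block (adjusted p = 0.00413 and 0.00513).

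Regulators of other blood lineages were mostly low or not detected. Of 17, 15 were below 1 TPM in all libraries, and *Gata1* (red cells), *Bcl11b* (T cells) and *Myb* (progenitors) were at 0 in all 6. Of the 11 tested, 0 were higher and 2 were lower in dCas9-KRAB-En5, namely *Tcf7*, from 1.37 to 2.93 TPM down to 0.0625 to 0.117 TPM (log2 fold change -4.45, edgeR adjusted p = 0.00375), and *Pax5*, which was at most 0.326 TPM in the controls and at 0 in dCas9-KRAB-En5. *Tcf7* and *Pax5* are known from T and B cells, and *Tcf7* also as a Wnt effector in other cell types. Of 6 factors of particular tissue macrophages, 3 were tested and 0 passed, or 1, *Pparg*, with the block, and *Sall1* (microglia) and *Spic* (spleen) were at 0.

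Genes known to be controlled by the factors were read in the same fit, with few calls. Of 14 *Spi1* targets all were tested and 0 passed, or 1 with the replicate block, *Itgam*, with a median log2 fold change of 0.17. *Lyz2*, which encodes lysozyme, was the most abundant. It was at 1896 to 4815 TPM in dCas9-KRAB and 6938 to 13210 TPM in dCas9-KRAB-En5 (log2 fold change 1.70, edgeR adjusted p = 0.0869). Fold changes in this list went in both directions, as for *Itgb2* (1.91, edgeR adjusted p = 0.0259) and *Fcgr1* (-1.84, edgeR adjusted p = 0.0178). Of 8 *Irf8* targets, *Irf8* itself among them, 6 were tested and 1 was higher, *Bcl6*, a repressor of inflammatory genes, at a mean of 2.47 TPM in the controls and 59.6 TPM in dCas9-KRAB-En5, with 6.07 TPM in replicate 3 of the latter (log2 fold change 4.17, standard error 0.72, edgeR adjusted p = 0.00321). The block added *Nf1* among these. Of 11 *Nr1h3* targets all were tested and 1 was lower, *Pltp*, a phospholipid transfer protein, at 61.7 to 174 TPM in dCas9-KRAB and 13.5 to 19.8 TPM in dCas9-KRAB-En5 (log2 fold change -2.91, standard error 0.53, edgeR adjusted p = 0.00458). The sterol exporters *Abca1* and *Abcg1*, also targets of LXR, did not pass.

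The targets of the factors below 1 TPM split between low and high levels. All 7 *Maf* targets were below 1 TPM in all libraries, 2 were tested and 0 passed, and *Cd163* and *Mrc1* (scavenger and mannose receptors of tissue macrophages) were at 0. Of 8 genes of Batf3-dependent dendritic cells, 5 were tested and 0 passed, or 1 with the block, *Id2*. *Clec9a*, a defining receptor of those cells, was at 0 in all 6 libraries. Of 7 targets of TFEC and its lysosomal relatives all were tested and 1 was higher, *Acp5*, the tartrate-resistant acid phosphatase, from 0.513 to 1.74 TPM up to 4.24 to 18.8 TPM (log2 fold change 3.04, standard error 0.65, edgeR adjusted p = 0.00959). The lysosomal genes *Hexa* and *Ctsd* were at 717 to 1751 and 417 to 940 TPM.

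The growth factors upstream of the set gave 0 calls among 7 tested of 11. *Csf1*, the macrophage growth factor, was at 4.45, 22.4 and 9.18 TPM in dCas9-KRAB and 1.88, 1.07 and 1.67 TPM in dCas9-KRAB-En5 (log2 fold change -2.86, edgeR adjusted p = 0.0135). *Il34*, the second ligand of the CSF1 receptor, was at 2.73 to 8.51 and 0.337 to 0.848 TPM (log2 fold change -3.37, adjusted p = 0.0167). With the block both were called lower (adjusted p = 0.00604 and 0.00104 from edgeR). *Kit*, the stem cell factor receptor, was at 0 in all 6 libraries.

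Markers of related cell types were checked beside the factors. Among the macrophage markers 1 of 26 tested was higher, *Adgre1* (F4/80; log2 fold change 2.68, edgeR adjusted p = 0.00706), and with the block 2 were higher and 1 lower. Of the neutrophil markers 3 of 10 were tested and 0 passed, with a summed TPM of 4.98 to 13.3. Of the T and B cell markers 1 of 10 was tested and 0 passed. Of 8 dendritic cell markers 4 were tested, with *Ccr7* higher and *Siglech* lower, the latter at 2.09 to 3.68 TPM in the controls and 0 in dCas9-KRAB-En5, at least 72.8-fold lower against a floor of 3 counts per library. Of 10 osteoclast markers 5 were tested and 1 was higher (*Acp5*), or 2 with the block, and of 9 fat cell markers 3 were tested and 1 was higher (*Fabp4*). Of 11 myoblast markers 9 were tested and 4 were lower, or 6 with the block, and of 10 mesenchymal markers 7 were tested and 1 was lower (*Col1a1*), or 2 with the block.

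The counts of these lists depended on the 2 libraries with the highest ribosomal protein share. Without both, where 42.5% of all genes tested were called, 4 paralogs were higher and 6 lower, 4 partners and antagonists were higher and 3 lower, and 8 other myeloid factors were higher and 3 lower. Of the targets, 4 were higher and 3 lower for *Spi1*, 2 higher and 3 lower for *Nr1h3*, 2 higher and 1 lower for *Maf*, 1 higher and 1 lower for *Tfec* and its relatives, 3 higher and 0 lower for *Irf8* and 2 higher and 0 lower among the *Batf3* genes. Of the macrophage markers 8 were higher and 8 lower, and of the growth factors and receptors 2 were higher and 3 lower.

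Genes with a pattern like that of a factor were ranked by Pearson's r of log2(TPM + 1) over the 6 libraries, among tested genes with a mean of at least 10 TPM. The likeness is a description over 6 points that share depth and ribosomal protein share. For *Spi1* they were *Ubald1* (r = 0.977), *Prrg2* (0.974) and *Traf4* (0.974), and for *Irf8* they were *Rab40c* (0.995), *Gm38317* (0.993) and the family member *Irf5* (0.992). For *Maf*, whose counts were low, they were *Hist1h1c* (0.888), *Tma7-ps* (0.877) and *Acod1* (0.875).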

How the data were processed

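RNA-Seq of 6 libraries of C2C12 cells (poly-A RNA, 3 a group) was used, with groups and replicate numbers from the sample titles. Reads were aligned by the authors to GRCm38 with HISAT2 2.2.1 and quantified with featureCounts, per the labels and the study's methods. The authors deposited raw counts and TPM per gene. The annotation release and strand setting are not given in the sources used here. Implied gene lengths were within 1% of the GENCODE exon length for 98.6% of genes counted throughout. Genes not listed in a file were taken as 0, and 23155 of 23231 identifiers matched a symbol.

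Counts were compared with edgeR 4.0.16 in R 4.3.3 (TMM, filterByExpr with a minimum count of 10 and a total of 15, quasi-likelihood test, Benjamini-Hochberg adjustment over all genes). Each standard error is the size of the fold change over the root of F. Alternatives were limma 3.58.1 (on TPM after adding 1 or 0.1, log2), DESeq2 1.42.0, other scalings and filters, a replicate block and leaving out libraries. The test was checked on simulated counts, where it recovered nearly all large changes but few of the smaller ones. Same-numbered libraries of the 2 groups deviated together (correlations 0.214 to 0.290, other pairs -0.34 to -0.05). These correlations are weak and the sample titles state no pairing, so a pairing by number is possible but not established. Ratios to markers were compared by two-sided exact permutation tests, unpaired and, added after seeing the data, paired (SciPy 1.17.1).

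The members and gene lists were chosen with earlier results of these data known, and some genes stand in more than 1 list. A family member is not reported here. Genes named are all members, list genes that were called or had the highest TPM or smallest adjusted p of their list, up to 5 a list, *Myog*, and the 3 genes most like *Spi1*, *Irf8* and *Maf*; others were chosen after their values were seen. Promoters are from RefSeq.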

Additional observations from a re-analysis of the deposited data

How the results depend on the processing

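The count of 0 members past the cutoffs held under 14 of 15 alternatives and was 3 without both libraries of high ribosomal protein share (replicate 1 of dCas9-KRAB, replicate 3 of dCas9-KRAB-En5), an alternative chosen after seeing the data. The number of genes past the cutoffs, 890, was 2390 with DESeq2, 2198 without a low-count filter, 586 with scaling by total counts, 544 with at least 10 counts in every library, 514 with limma on log2(TPM + 1), 1543 with the replicate block, 222 to 3921 with each library left out and 6553 without both libraries. With 1 library left out, the count was highest without dCas9-KRAB-En5 replicate 3 and lowest without dCas9-KRAB replicate 1. The block changed the call of no member.

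Directions of near-zero fold changes were unstable. *Irf8* turned to -0.35 without both libraries and ranged from -0.36 to 0.30 with each library left out. *Cebpa* turned to -0.011 with total counts and -1.02 without both libraries, and ranged from -0.59 to 0.37 with each library left out. *Nr1h3* turned to -0.10 and -0.17 with limma on log2(TPM + 1) and log2(TPM + 0.1), -0.33 with the block and -1.40 without both libraries, and ranged from -1.30 to 0.76 with each library left out. The signs of *Spi1*, *Cebpb*, *Runx1* and *Maf*, and of all 6 ratios to macrophage markers under 9 alternatives each that could move them, did not turn. The causes were not tested. *Maf* could not be fitted with at least 10 counts in every library. Depth limits *Maf*, *Batf3* and *Tfec*, and 3 libraries a group limit the rest.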
